A study of Homo sapiens with 8 samples.

Results

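The genes described here are 10 imprinted genes, PEG3, ZIM2, MEST, PEG10, SGCE, SNRPN, PLAGL1, GRB10, IGF2 and CDKN1C, out of 20037 protein-coding genes in all. They were chosen by name, and PEG3 with ZIM2 also because the widest RH4 consensus entry lies at their shared end. That width, and the peaks within 1000 bp of a gene end in each library, are therefore given as a description, with no test. Binding of NF-Y, the trimeric CCAAT-binding factor made of NFYA, NFYB and NFYC, was mapped by CUT&RUN, in which a nuclease held by an antibody releases short DNA fragments at the places a protein occupies. Peak lists of 6 libraries were used, 1 library per group, so no group has a replicate.

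Both cell lines are rhabdomyosarcoma lines labelled PAX3-FOXO1+, the fusion oncogene that every group shares. RH4 cells were uninfected and untreated and gave 1 library with antibody to NFYB and 1 with antibody to NFYC. RH30 cells were engineered to express an inducible cytosine base editing system (the title term seBE is not explained), were selected for their guide with blasticidin, received rapamycin to start editing, and were collected on day 8 of rapamycin. They carried sgCCAAT2a or sgCCAAT2b, guides against a CCAAT motif in the PAX3 promoter, or the control guides sgCtrl1 or sgCtrl2, and each guide gave 1 NFYB library. Libraries of cells with sgCCAAT2a or sgCCAAT2b are termed edited; the extent of editing was not analysed here. All 5 libraries titled RH30 have RH4 as their source name and as their cell line label, and are called RH30 after their titles. Peak positions do not measure expression, so the cell type could not be checked against marker levels.

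An imprinted gene is expressed mainly from the copy inherited from one parent. The choice is set by a differentially methylated region, often at a promoter or inside a gene, and neighbouring imprinted genes often share one such region. PEG3 and ZIM2 share their 5' exons, PEG10 and SGCE diverge from one promoter region, and IGF2 and CDKN1C lie in one large cluster governed by separate control regions. IGF2 is a growth factor long known for high expression in rhabdomyosarcoma.

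Promoter windows of RefSeq (GRCh38.p14, 250 bases before to 50 after a start site) were found for 4 of the 10 genes, MEST, SNRPN, PLAGL1 and GRB10, with 19 windows among them. NF-Y recognises the pentamer CCAAT on either strand, so the letters CCAAT and ATTGG (its reverse complement) were searched in each window. They occurred in 5 of the 19 windows (26.3%, exact 95% interval 9.15 to 51.2%), against 34.6% of all 35116 windows. Among the 2858 windows that an RH4 consensus entry overlapped, the share was 87.5%, against 29.9% of the other 32258. Windows of one gene can overlap, as 2 windows of MEST that hold the same CCAAT do, so they are not independent. Below, the first window with the letters is shown for each of the 4 genes, none of which had a peak over it in any library, with capitals for CCAAT or ATTGG.
MEST, chr7:130485925-130486224, plus strand: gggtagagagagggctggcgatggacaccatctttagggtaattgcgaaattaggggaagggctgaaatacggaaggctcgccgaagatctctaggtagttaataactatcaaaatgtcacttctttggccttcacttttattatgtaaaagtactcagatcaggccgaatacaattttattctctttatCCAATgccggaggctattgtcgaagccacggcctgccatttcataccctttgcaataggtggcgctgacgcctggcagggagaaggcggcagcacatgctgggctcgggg
SNRPN, chr15:24862722-24863021, plus strand: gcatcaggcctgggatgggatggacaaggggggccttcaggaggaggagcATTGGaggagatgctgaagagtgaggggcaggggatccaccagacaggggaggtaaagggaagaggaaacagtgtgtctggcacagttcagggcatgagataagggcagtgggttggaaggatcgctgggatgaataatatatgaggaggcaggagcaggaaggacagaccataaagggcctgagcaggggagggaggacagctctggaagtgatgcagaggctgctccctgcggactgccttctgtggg
PLAGL1, chr6:143961363-143961662, minus strand: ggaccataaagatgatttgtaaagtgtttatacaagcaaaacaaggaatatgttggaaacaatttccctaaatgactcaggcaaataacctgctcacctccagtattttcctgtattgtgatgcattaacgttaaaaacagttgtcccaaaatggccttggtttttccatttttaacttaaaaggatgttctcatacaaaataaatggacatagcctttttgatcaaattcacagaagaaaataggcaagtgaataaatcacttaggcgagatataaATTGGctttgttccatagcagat
GRB10, chr7:50782847-50783146, minus strand: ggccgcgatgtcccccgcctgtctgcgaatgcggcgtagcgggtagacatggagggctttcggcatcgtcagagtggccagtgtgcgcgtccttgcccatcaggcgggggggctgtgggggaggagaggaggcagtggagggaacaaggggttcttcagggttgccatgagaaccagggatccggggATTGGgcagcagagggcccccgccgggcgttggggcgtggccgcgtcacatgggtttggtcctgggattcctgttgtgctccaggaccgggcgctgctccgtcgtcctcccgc
The next windows belong to 2 further imprinted genes that did carry peaks, ZNF597 in 6 libraries and NAP1L4 in 3. Capitals are used in the same way. They are examples from the 9 genes of the further list below with a peak in at least 1 library. The letters were not counted over those 9, so no contrast with the 4 genes above is drawn.
ZNF597, chr16:3443455-3443754, minus strand: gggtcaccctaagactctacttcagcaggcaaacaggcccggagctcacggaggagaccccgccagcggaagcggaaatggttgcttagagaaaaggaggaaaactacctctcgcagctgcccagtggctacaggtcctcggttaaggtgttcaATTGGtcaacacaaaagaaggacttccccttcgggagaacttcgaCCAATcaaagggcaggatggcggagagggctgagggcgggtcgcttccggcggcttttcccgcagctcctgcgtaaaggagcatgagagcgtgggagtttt
NAP1L4, chr11:2992280-2992579, minus strand: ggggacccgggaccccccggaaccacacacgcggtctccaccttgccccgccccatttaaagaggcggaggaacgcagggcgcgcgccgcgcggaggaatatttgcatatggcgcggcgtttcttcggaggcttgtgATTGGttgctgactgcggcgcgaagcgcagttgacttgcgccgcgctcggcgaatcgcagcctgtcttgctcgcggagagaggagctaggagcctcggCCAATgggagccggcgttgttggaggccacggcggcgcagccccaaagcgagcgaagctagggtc
The ZNF597 window holds CCAAT and ATTGG with their first letters 45 bases apart, and the NAP1L4 window holds both 98 bases apart. The MEST window holds a single CCAAT, which starts 60 bases before the start site. A match of letters is a description of the sequence and not a binding site.

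The shared 5' end of PEG3 and ZIM2 was the sole place where any of the 10 genes had a peak within 1000 bp of a gene end. PEG3 encodes a large zinc finger protein expressed from the paternal copy, and ZIM2 encodes a zinc finger protein whose first exons are those of PEG3. PEG3 spans chr19:56810082-56840726 and ZIM2 chr19:56774547-56840726, and as background both are read from the higher coordinate. By this count 2 of 10 genes had a peak in the RH4 NFYB list, against 15.0% of all genes. The RH4 NFYC list also had 2 of 10, against 15.3% of all genes, and the consensus of both had 2 of 10, against 13.4%. In RH30 it was 0 of 10 with sgCCAAT2a and 2 of 10 with sgCCAAT2b, against 0 of 10 with sgCtrl2 and 2 of 10 with sgCtrl1. The shares of all genes were 8.9% with sgCCAAT2a, 9.27% with sgCCAAT2b, 12.6% with sgCtrl1 and 16.8% with sgCtrl2. The 2 genes share 1 end and count as 1 place, the genes were chosen with these peaks known, and 0 of 10 allows up to 30.8% by the exact 95% limit.

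All 6 libraries nevertheless had a peak in the same stretch of DNA, inside both genes, with centres from 948 to 1608 bp from their 5' end. The RH4 NFYB peak lay at chr19:56838950-56839938 and was 989 bp wide. The RH4 NFYC peak lay at chr19:56838970-56839949 and was 980 bp wide. Their intersection is the consensus entry of 969 bp at chr19:56838970-56839938, centred 1272 bp inside the genes.

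Every RH30 peak of this place lay within that consensus entry. With sgCCAAT2a the list held 1 peak, centred 1440 bp inside the genes. With sgCCAAT2b it held 2, centred 1412 and 948 bp inside. With sgCtrl1 it held 2, centred 1608 and 956 bp inside, and with sgCtrl2 it held 1, centred 1323 bp inside. The edited and the control libraries thus each had 1 list with 1 peak and 1 list with 2, and the groups did not separate.

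**Figure D1:**
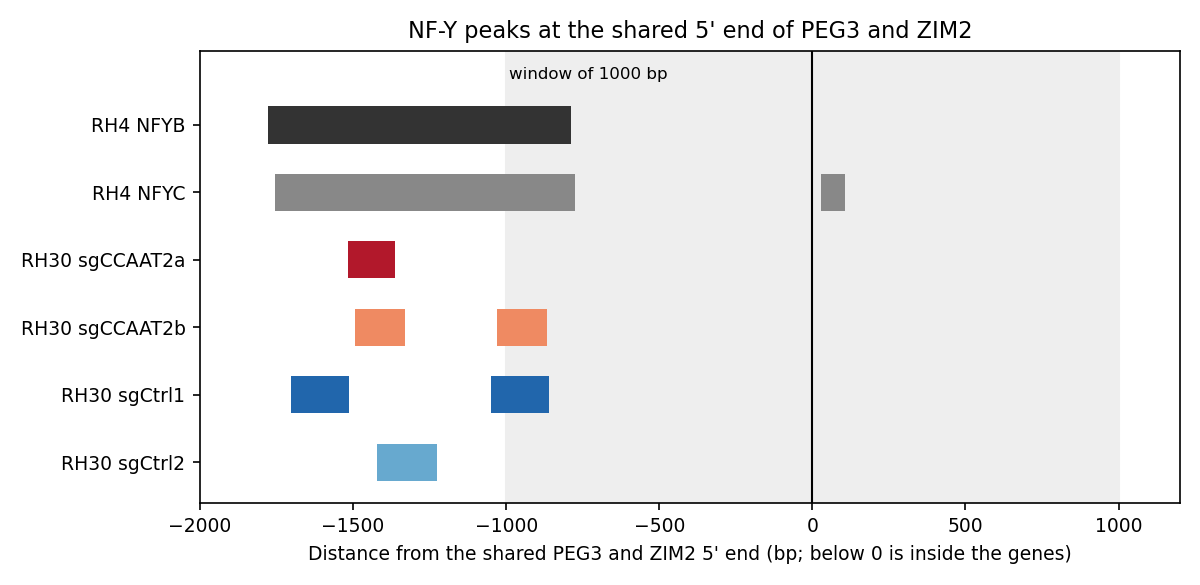
Peaks at the shared 5' end of PEG3 and ZIM2 in each library (bars, drawn at their true width) by distance from that end in bp, with the inside of the genes below 0 and the window of 1000 bp shaded. The RH4 peaks of 989 and 980 bp reach into the window from further inside, all RH30 peaks lie under them, and the sgCCAAT2a and sgCtrl2 peaks stop short of the window.

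Which libraries were counted at this end followed from where the peaks fell relative to the window. Just inside the limit were the outer peaks of sgCCAAT2b and sgCtrl1, whose nearest edges lay 867 and 862 bp from the gene end, and the RH4 NFYB and NFYC peaks, at 788 and 777 bp. Just outside were the sgCCAAT2a peak at 1364 bp and the sgCtrl2 peak at 1225 bp. When a peak anywhere in the gene body or within 1000 bp counted, a rule added after the lists had been seen, PEG3 and ZIM2 were called in all 6 libraries, as were 8.24% of all genes. By that rule 3 of 10 members were called in RH4 NFYB, where PEG10 was added, against 17.2% of all genes, and 2 of 10 in RH4 NFYC, against 17.8%. In RH30 it was 2 of 10 in each list, where all genes gave 10.7% with sgCCAAT2a and 11.2% with sgCCAAT2b, against 16.2% with sgCtrl1 and 23.7% with sgCtrl2. Of the 1652 genes called in all 6 by that rule, 243 (14.7%) were not called in all 6 at a gene end. Of 2380 consensus entries that overlapped such a window, 24 (1.01%) had their centre over 1000 bp from the end. Only a wide entry can reach the window from a centre well outside it. PEG3 was chosen by width, so this share does not mark a separate trait. The tables used here give no exons for these genes. As background, the first intron of PEG3 is known for an array of binding sites of the factor YY1 within the methylated control region.

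The RH4 NFYC list held a separate narrow peak of 78 bp at chr19:56840756-56840833, centred 68.5 bp outside the genes. It lies between the start of PEG3 and that of MIMT1, a non-coding imprinted RNA that spans chr19:56840902-56848556. No NFYB list, in RH4 or RH30, had a peak there. Of all NFYC peaks 91.2% were wider.

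By width, the PEG3 entry ranked 1 of 3073 consensus entries, whose median width was 217 bp, and the entry at CIC, a transcriptional repressor, was next with 965 bp. The same peak ranked 5 of 3243 in the NFYB list and 2 of 3760 in the NFYC list. RH30 widths carry no such information, since the caller gave each RH30 list 1 peak size: medians were 153 bp with sgCCAAT2a, 163 bp with sgCCAAT2b, 189 bp with sgCtrl1 and 197 bp with sgCtrl2. A wide region can hold several RH30 peaks, set apart by at least 304 to 392 bp per the file headers.

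**Figure D2:**
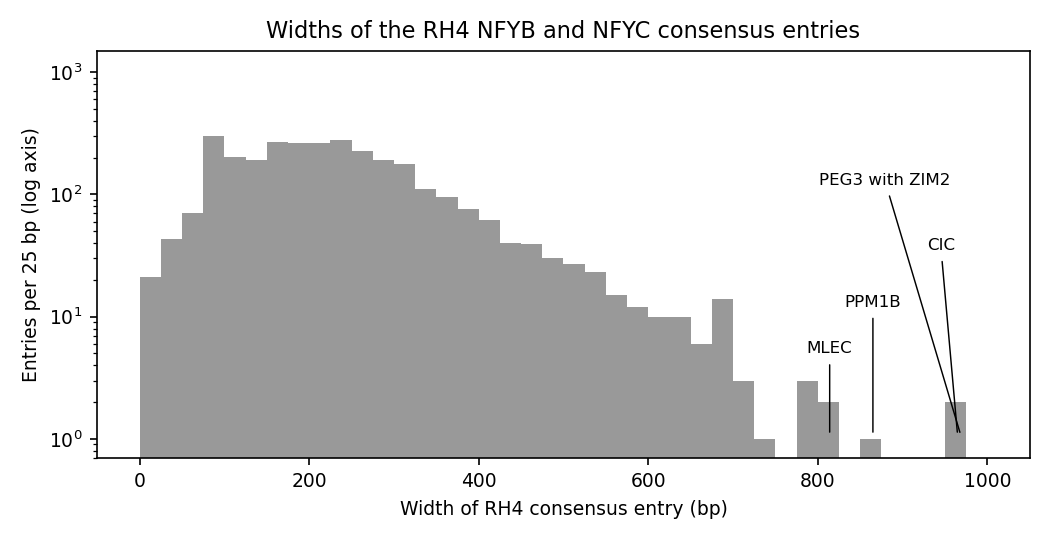
Number of RH4 consensus entries (log axis) in bins of 25 bp of width, over 3073 entries with a median of 217 bp. The entries at PEG3 with ZIM2 (969 bp) and at CIC (965 bp) stand apart from the rest, followed by PPM1B and MLEC.

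The 5 genes next in consensus width were set beside PEG3, and each of their entries had a peak in all 4 RH30 lists. The PEG3 entry held 6 RH30 peaks in all. The CIC and MLEC entries also held 6, and those at PPM1B, at MYL11 with TBC1D10B and at RAB40C held 4, 1 per list. An entry with at least 2 peaks of 1 list was rare: there were 3 with sgCCAAT2a (0.0976% of 3073), 4 with sgCCAAT2b (0.13%), 2 with sgCtrl1 (0.0651%) and 2 with sgCtrl2 (0.0651%). PEG3 was 1 of the 4 with sgCCAAT2b and 1 of the 2 with sgCtrl1. Peaks of 1 list stand at least 304 to 392 bp apart, so a narrow entry has little room for 2. PEG3 was picked for its width, so holding 2 peaks is not a separate trait.

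The RH30 peaks at PEG3 lay farther from each other than in most entries. Taking from each RH30 list the peak that brought the 4 centres closest, the centres spanned 285 bp at PEG3, against a median of 43 bp over the 1437 entries with a peak in all 4 lists. Of those entries 6 had a larger span. Among the other 8 of the 10 widest entries at genes with a peak in all 4 lists, the span ran from 4 to 267 bp, with a median of 136 bp. The edited peaks of sgCCAAT2a and sgCCAAT2b shared 130 bp, while the sgCtrl1 and sgCtrl2 peaks shared 0 bp. The outer peaks of sgCCAAT2b and sgCtrl1 were centred 8 bp apart. An overlap of at least 1 bp would thus call this place unshared between the controls, although both lists have a peak within the consensus entry. Whether those peaks mark the same site was not tested. PEG3 was picked for its width, and a wide entry leaves more room for such a span.

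RH30 peaks do not stand in genome order in their files, and no header states what orders them, so a peak's place is given only as the files hold it. The PEG3 peak of sgCCAAT2a stood at place 682 of 2451 and the first of sgCCAAT2b at place 626 of 2558. The first of sgCtrl1 stood at place 357 of 4025 and that of sgCtrl2 at place 409 of 6687. These are the first 27.8%, 24.5%, 8.87% and 6.12% of each list. Places in lists of different length show no change between libraries, and the libraries differed in depth, with 21.2 M and 28.2 M tags in the edited libraries and 13.9 M and 10.5 M in sgCtrl1 and sgCtrl2. Tags in peaks made up 1.22% and 1.46% in the edited libraries, against 2.40% and 3.10% in sgCtrl1 and sgCtrl2, and the part of depth in these places was not tested.

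Each of the authors' deposited tables runs sgCtrl2 over 1 other library and holds those sgCtrl2 peaks where the tag ratio reached 2.5 and the Poisson p passed a limit of 0.001. In the authors' deposited table over sgCCAAT2a the PEG3 peak was listed, as were 61.9% of all sgCtrl2 peaks. It was not in the authors' deposited table over sgCCAAT2b, which lists 60.7% of sgCtrl2 peaks, nor in that over sgCtrl1, which lists 36.2%. The 2 edited libraries therefore did not give the same listing, and all 3 tables share the sgCtrl2 library.

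PLAGL1, the remaining zinc finger gene, encodes a transcription factor that restrains cell growth, and no list had a peak in the gene or within 31 kb of it. It spans chr6:143940300-144064599. In RH4 NFYB and in all 4 RH30 lists its nearest peak lay 96.8 to 97.0 kb away, at the end of LTV1, a ribosome assembly gene. In RH4 NFYC the nearest was 31.1 kb away, at SF3B5, a splicing factor subunit.

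The growth control genes IGF2, GRB10 and CDKN1C had no peak in the gene body in any library. IGF2 spans chr11:2129117-2149566, and the sgCtrl2 list had a peak at chr11:2127344-2127540, which ends 1577 bp below its lower end, as background the 3' end. That peak stood at place 4714 of 6687. It was in the authors' deposited table over sgCCAAT2a and not in those over sgCCAAT2b and sgCtrl1. The nearest peak to IGF2 was 550 kb away with sgCCAAT2a and 551 kb with sgCCAAT2b, against 550 kb with sgCtrl1, and 251 kb away in both RH4 lists. The peak near IGF2 thus occurred in sgCtrl2 alone, the longest of the 6 lists. GRB10, an adaptor that dampens insulin receptor signalling, spans chr7:50590068-50793453. Its nearest peak was 63.2 kb away with sgCtrl1, 2.55 Mb in both RH4 lists and with sgCtrl2, and 5.26 Mb in both edited lists.

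CDKN1C, an inhibitor of cyclin-dependent kinases expressed from the maternal copy, spans chr11:2883218-2885775 and had no peak within 100 kb. Its nearest peak in sgCCAAT2a, sgCCAAT2b and sgCtrl1 lay 183 kb away at the start of KCNQ1OT1, a long non-coding RNA read from inside KCNQ1. With sgCtrl2 the nearest peak lay 107 kb away and in both RH4 lists 106 kb away, at NAP1L4. As background, KCNQ1OT1 is expressed from the paternal copy, starts in a methylated control region and keeps CDKN1C silent on that copy. In mice, CCAAT boxes in this control region have been reported to bind NF-Y. KCNQ1OT1 was singled out after the lists had been seen.

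KCNQ1OT1 spans chr11:2608328-2699994, and all 6 libraries had a peak centred just outside its higher end, which the RH4 NFYB peak straddled. The RH4 NFYB peak lay at chr11:2699952-2700431 and the NFYC peak at chr11:2700005-2700278. Their centres lay 197.5 and 147.5 bp outside the gene. In RH30 the centres lay 145 bp outside with sgCCAAT2a, 158 bp with sgCCAAT2b, 142 bp with sgCtrl1 and 155 bp with sgCtrl2. The range of positions was narrower than at PEG3. The consensus entry is 274 bp wide here, against 969 bp at PEG3, which leaves less room for a spread. Places in the files were 289 of 2451 with sgCCAAT2a and 246 of 2558 with sgCCAAT2b, against 228 of 4025 with sgCtrl1 and 184 of 6687 with sgCtrl2. The peak was in none of the authors' deposited tables. Of 18322 genes annotated as long non-coding or antisense RNA, 1.75% had a peak at an end in all 6 libraries.

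Across the cluster from H19 to NAP1L4, the KCNQ1OT1 peak was the single peak of the sgCCAAT2a, sgCCAAT2b and sgCtrl1 lists. Each RH4 list had 3 peaks there, at TSSC4, KCNQ1OT1 and NAP1L4. The sgCtrl2 list had 5, of which 1 lay at KCNQ1OT1 and 1 at NAP1L4, and the others lay near IGF2, in KCNQ1 and 32.6 kb from ASCL2. NAP1L4, a histone chaperone gene, had peaks of 572 bp for NFYB and 420 bp for NFYC in RH4. Both cover the CCAAT and the ATTGG of the window shown above, and the sgCtrl2 peak at NAP1L4 covers neither.

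**Figure D3:**
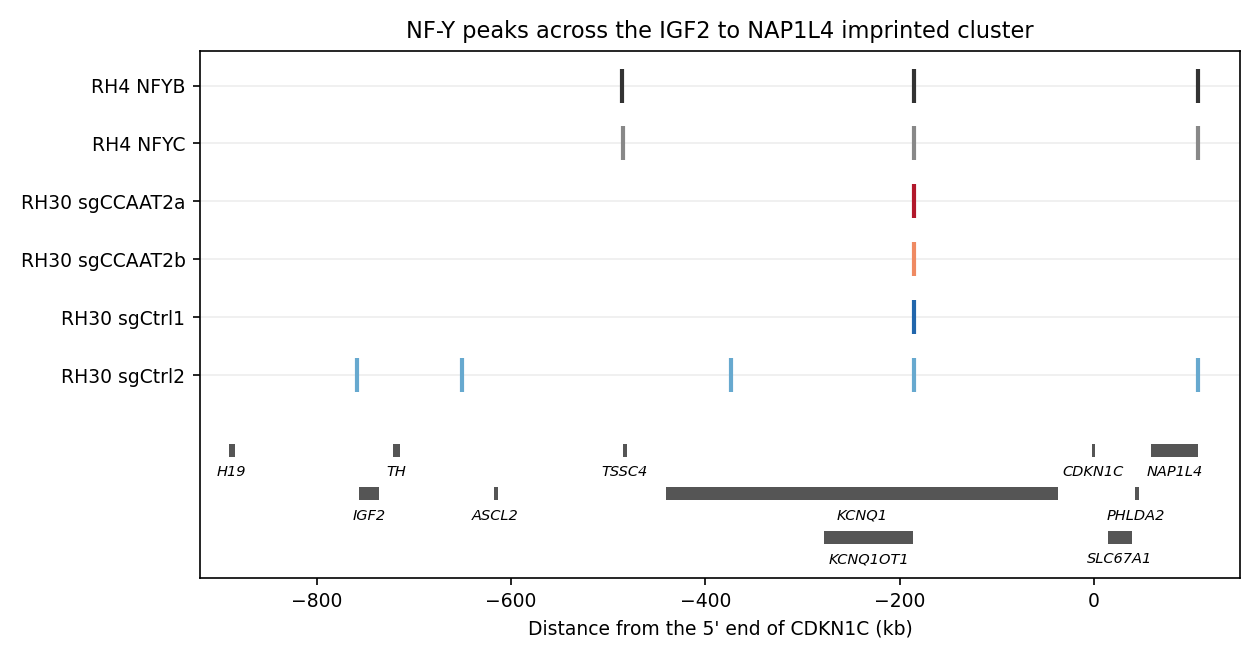
Peaks of each library (vertical ticks) and selected genes (bars) by distance from the 5' end of CDKN1C in kb. All 6 libraries share the tick at the start of KCNQ1OT1, and the other ticks occur in RH4, with sgCtrl2 or in both.

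PEG10, derived from a retrotransposon and important for the placenta, and SGCE, the epsilon subunit of the sarcoglycan complex of muscle membranes, were close to a peak in 1 library only. The RH4 NFYB list had a peak at chr7:94657911-94658120, inside PEG10 and 1586 bp from its lower end, as background its 5' end. It was 210 bp wide, the least width in that list, where 94.9% of peaks were wider. It lay 1778 bp outside SGCE, which spans chr7:94584980-94656133. The NFYC list of the same cells had none within 2 Mb of either gene, and in RH30 the nearest peak to PEG10 was 0.617 to 1.63 Mb away. This peak therefore has no counterpart in the other 5 lists.

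MEST, a hydrolase family gene expressed from the paternal copy, spans chr7:130486175-130506465, and its nearest peak lay 44.8 to 45.0 kb away in all 6 libraries. That peak lay at CEP41, a centrosome gene, with centres 572 to 705 bp from the end of CEP41. COPG2, a coat protein gene whose tail overlaps that of MEST, had peaks at its far end in both RH4 lists and in no RH30 list. SNRPN, which encodes a spliceosome protein and lies in the Prader-Willi region, spans chr15:24823637-24978723. Its nearest peak was 0.525 Mb away with sgCCAAT2a and 5.18 Mb with sgCCAAT2b, against 0.525 Mb with sgCtrl1 and 0.914 Mb with sgCtrl2. In RH4 it was 6.35 Mb for NFYB and 3.85 Mb for NFYC, and no list had a peak within 100 kb.

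**Figure D4:**
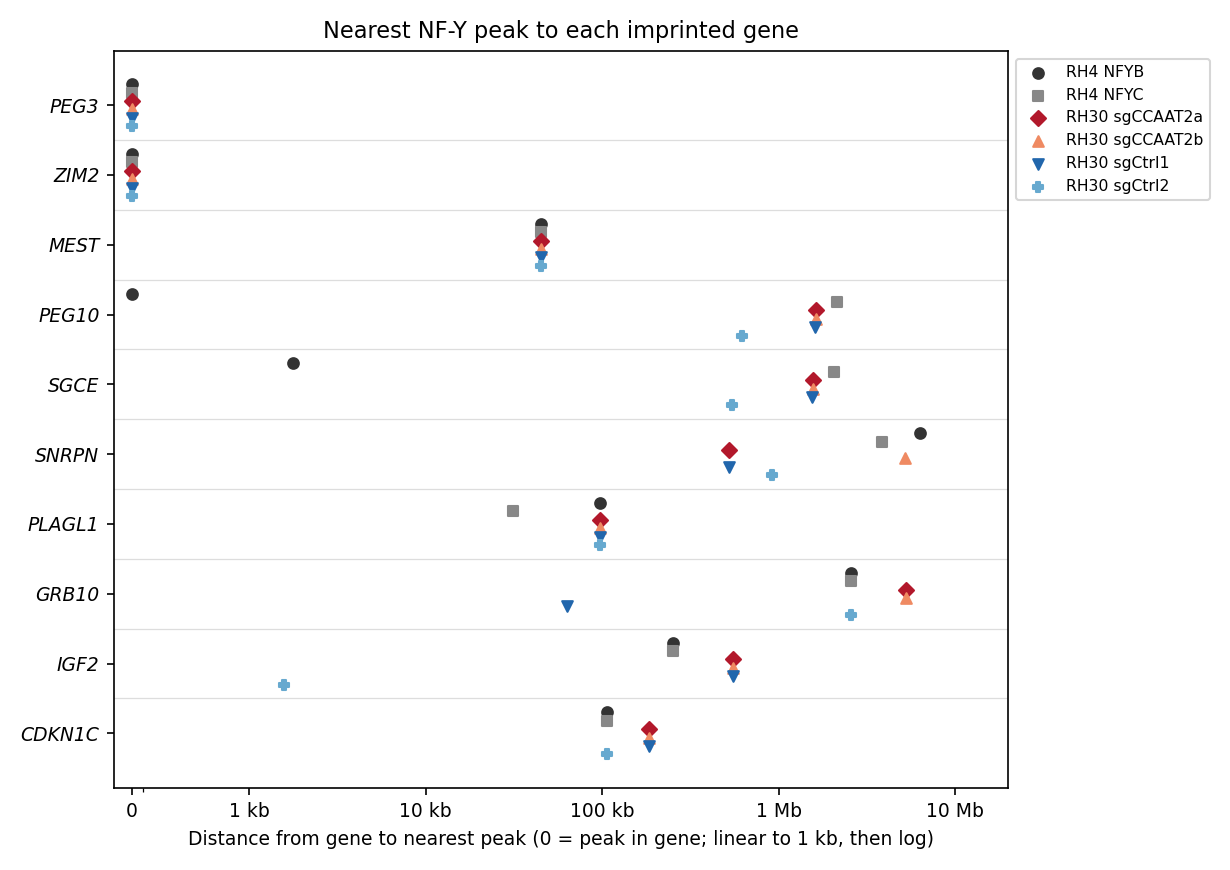
Distance from each of the 10 genes to the nearest peak in each library, 0 where the peak lies in the gene, on an axis that is linear to 1 kb and logarithmic beyond. PEG3 and ZIM2 are at 0 in all 6 libraries, PEG10 in RH4 NFYB alone, and MEST is at 44.8 to 45.0 kb throughout.

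The nearest protein-coding gene on each side of the members, leaving out other members and genes that overlap the member, gave 17 neighbours. CEP41 had a peak at an end in all 6 libraries, TSGA13 in both RH4 lists, SF3B5 in RH4 NFYC, and 14 had none at an end in any library. Among all protein-coding genes the shares were 7.03% in all 6 libraries and 21.7% in at least 1, so the 3 of 17 neighbours with a peak are near the background. Among those 14 were KCNQ1, UBE3A, CASD1, PPP1R9A, DDC and INS. The RH4 peaks at the far end of COPG2, described above, also lie within 1000 bp of TSGA13.

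A further list of 61 genes reported as imprinted, all matched in the reference and MIMT1 the only non-coding one, was counted in the same way. In RH4, 7 had a peak at an end for NFYB (11.5%, exact 95% interval 4.74 to 22.2%), beside 15.0% of all protein-coding genes. For NFYC 8 had one (13.1%, 5.84 to 24.2%), beside 15.3%. In RH30 it was 2 with sgCCAAT2a and 2 with sgCCAAT2b (3.28% each, 0.4 to 11.3%), beside 8.9% and 9.27% of all genes. With sgCtrl1 it was 2 (3.28%, 0.4 to 11.3%), beside 12.6%, and with sgCtrl2 4 (6.56%, 1.82 to 15.9%), beside 16.8%. The genes counted with sgCCAAT2a, sgCCAAT2b and sgCtrl1 were the same 2, ZNF597 and NAA60, so between those lists only the share of all genes differed. With sgCtrl2, NAP1L4 and NNAT were added. The list was chosen with earlier results known, so the intervals are not read against the shares of all genes. No test was made in any library. Over the 6 libraries together, 9 of 61 (14.8%, 6.98 to 26.2%) had a peak in at least 1, against 21.7% of all protein-coding genes. Imprinted genes share clusters, and ZNF597 and NAA60 share a promoter, so the genes are not independent counts.

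ZNF597, a zinc finger gene, and NAA60, an acetyltransferase gene, share a promoter on chromosome 16. They were the 2 genes of this list with a peak in all 6 libraries, as 7.03% of all protein-coding genes had. The peak lay at chr16:3443356-3443779 for NFYB in RH4 and at chr16:3443481-3443699 for NFYC. In RH30 it lay at chr16:3443504-3443656 with sgCCAAT2a and chr16:3443512-3443674 with sgCCAAT2b, against chr16:3443520-3443708 with sgCtrl1 and chr16:3443495-3443691 with sgCtrl2. Each of the 6 peaks covers both the CCAAT and the ATTGG of the ZNF597 window shown above. This peak was in none of the authors' deposited tables.

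The other genes of the list with a peak at an end had it in fewer libraries. COPG2, TSSC4 and ZFAT, a zinc finger gene, had one in both RH4 lists, as did MIMT1, whose peaks are those described above at PEG3, INPP5F, a phosphoinositide phosphatase gene, had one in RH4 NFYC, and NAP1L4 in both RH4 lists and with sgCtrl2. NNAT, which encodes a small membrane protein of the nervous system, had one with sgCtrl2 at chr20:37523242-37523438. The authors' deposited tables listed the NNAT peak over sgCCAAT2a and sgCCAAT2b and not over sgCtrl1, and the NAP1L4 peak over all 3 libraries. Of 16 imprinted non-coding RNAs, a list drawn up after the peak lists had been seen, KCNQ1OT1 had a peak at an end in all 6 libraries and MIMT1 in both RH4 lists. The other 14, among them H19, MEG3, SNHG14 and AIRN, had none. Of all 18322 long non-coding and antisense RNA genes, 1.75% had a peak at an end in all 6 libraries and 6.78% in at least 1, and the peaks of MIMT1 are those at PEG3.

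**Figure D5:**
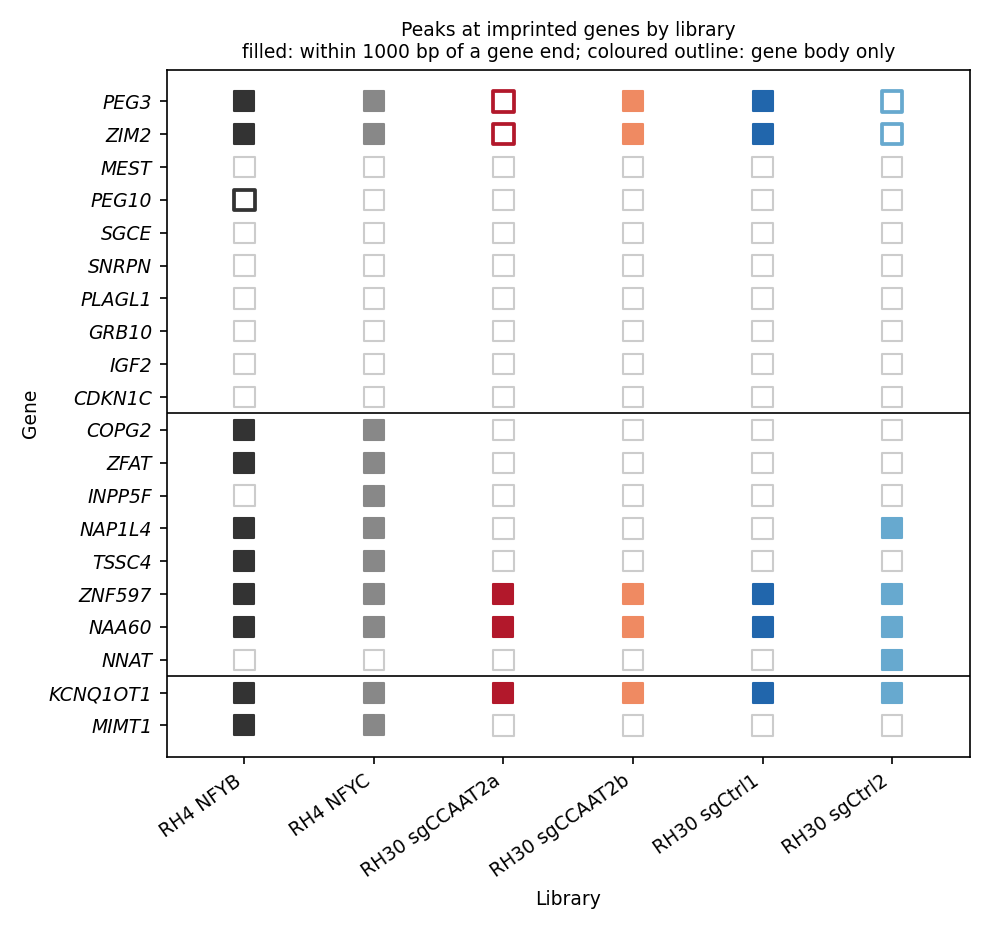
Presence of a peak by library (columns) for the 10 genes (top block), the further imprinted genes with a peak in at least 1 library (middle block) and non-coding imprinted RNAs (bottom block). Filled squares are peaks within 1000 bp of a gene end; coloured outlines, drawn for the top block only, are peaks in the gene body alone. ZNF597, NAA60 and KCNQ1OT1 are filled in all 6 columns, and PEG3 with ZIM2 are filled in 4 and outlined with sgCCAAT2a and sgCtrl2.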

How the data were processed

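Of 8 CUT&RUN libraries, the 6 with antibody to NFYB or NFYC were used, and the IgG pair was not. The deposited values are peak positions in bp, without heights, and the score column of all 10 deposited files holds a constant of 1. HOMER's peak finder made each RH30 list from 1 library, against an input common to all 4, per the file headers, and HOMER's differential step made the 3 comparison tables from sgCtrl2 peaks. Which caller made the RH4 lists is not stated, and RH4 depth is unknown. The submitters' processing notes name the build hg38 and, with no role given, HOMER, MACS2, Bowtie2, bedtools, deepTools, Trimmomatic and FastQC. RH30 depth was 10.5 to 28.2 M tags.

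Gene positions came from RefSeq (GRCh38.p14), which gave 20037 protein-coding genes. A gene was called when a peak came within 1000 bp of its start or its end coordinate on either side, by an overlap of at least 1 bp. Starts were converted to count from 1. Intervals are exact Clopper-Pearson 95% intervals and cover the counting of genes, windows or entries only. With 1 library per group no p-value was computed. The 10 genes, the further list and the rule for named genes (all members, nearest neighbours, every listed imprinted gene with a peak, and the 5 next widest consensus genes) were chosen with earlier results of these data known. Alternatives were windows of 500 and 3000 bp, the peak centre, the wider part (RH4) or first part in file order (RH30) of each list, an overlap of 50% of both peaks, summed widths, identical coordinates and, added later, the gene body. The overlap code was tested on simulated data: 6 of 6 lists of 300 peaks gave the same genes as bedtools 2.31.1. Python 3.11.15 with pandas 2.3.3 and scipy 1.17.1 was used.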

Additional observations from a re-analysis of the deposited data

How the results depend on the processing

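Counts of members at a gene end depended on the window. With 500 bp the count was 0 of 10 in RH4 NFYB, sgCCAAT2b and sgCtrl1, where 1000 bp gave 2, since the PEG3 peaks lie further inside the gene. RH4 NFYC kept 2 with 500 bp, and with the peak centre, only through its separate peak of 78 bp, 30 bp outside the gene. With 3000 bp it was 4 in RH4 NFYB (PEG10 and SGCE added), 2 with sgCCAAT2a and 3 with sgCtrl2 (PEG3, ZIM2 and IGF2). With the peak centre required in the window it was 0 in RH4 NFYB. With the gene body counted, an alternative chosen after seeing the data, it was 2 with sgCCAAT2a and 2 with sgCtrl2, where gene ends gave 0. Under these window alternatives the counts of members in the other libraries, and the counts of all genes, stayed within 1.5 times. So did the members under the wider or first parts of the lists, the consensus entry at PEG3 with 50% overlap, the listings with identical coordinates, and the summed width at PEG3, 1058 bp for NFYC. The PEG3 peaks, chosen by width, had to remain in the wider parts of the RH4 lists. Their overlap spans nearly all of both RH4 peaks, so it had to pass 50%. What orders the RH30 files is not stated, so their first parts are not known to be stricter. The 5' end alone could not be counted for PEG3 and ZIM2, since the reference gave a strand for MEST, SNRPN, PLAGL1 and GRB10 only, which have no peak at either end. No paired analysis was possible because each group holds 1 library and no test was run. Depth is unknown for RH4, and without peak heights a peak just under the caller's threshold cannot be told from none.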

Other observations

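Beyond the shared promoter peak, the ZNF597 and NAA60 locus had a second peak nearby in both edited lists and in neither control list. It lay at chr16:3444260-3444412 with sgCCAAT2a and chr16:3444199-3444361 with sgCCAAT2b, centred 832 and 776 bp outside ZNF597. These peaks stood at place 2349 of 2451 and place 2383 of 2558, near the end of each file. Peaks that overlapped a peak of the other edited list and none of either control list made up 107 of 2451 (4.37%) with sgCCAAT2a and 106 of 2558 (4.14%) with sgCCAAT2b, and this locus, picked after the lists had been seen, is 1 of them. The RH4 lists had no peak there. NAA60 also had a peak well inside the gene in all 6 libraries, at chr16:3457726-3458108 for NFYB in RH4.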
